A study of Mus musculus with 30 samples.

Results

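Genes that were higher, or lower, on the middle days of osteogenic culture than at both its ends were described in untreated IDG-SW3 cells, from the 6 libraries of days 14 and 21 set against the 6 libraries of days 3 and 35. These are 12 of the 30 libraries of the series and 12 of the 18 libraries of untreated cells. A gene belonged to the pattern where its day 14 and day 21 means both lay above, or both lay below, its day 3 and day 35 means, and it was called where the difference between the middle days and the ends also had an adjusted p below 0.05. Of 9933 genes tested, 1275 were called higher on the middle days and 1004 were called lower.

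IDG-SW3 is a mouse bone cell line that passes from an osteoblast-like to an osteocyte-like state in culture. It was grown up at 33 °C with interferon-gamma, which keeps its inducible large T antigen on, and was then moved to 37 °C without interferon-gamma in medium with ascorbic acid and beta-glycerophosphate. All groups used here share this culture and received no hormone or vehicle, and differ by the labels in the day of harvest, with 3 libraries a day. The submitters call these biological replicates without saying whether they were separate cultures, so p-values measure the spread between these libraries. Days 7 and 28 of the same course took no part in the order or the difference that chose the genes and are given as description, and the hormone experiment of the series was not used.

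Osteoblasts divide, lay down a collagen matrix and then mineralize it, and some become osteocytes inside it. A time course of such a culture holds genes that climb or decline throughout and genes that pass through a maximum or a minimum on the way. Factors that act between cells, such as BMPs, Wnt antagonists, IGF-binding proteins and enzymes that activate or inactivate hormones, are known to be used at particular stages of bone formation. Immediate-early genes and targets of the transcription factor ATF4 respond quickly to stimulation, amino acid shortage or stress.

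Values are RPKM, read numbers scaled to transcript length and to the size of the library, which can be compared between genes. Absolute depth is unknown, and the smallest steps in the values put the libraries' depths between 0.753 and 1.55 of that of day 7 replicate 3. Rows of ribosomal RNA made up 75.6% to 80.1% of the summed RPKM on day 3, 73.6% to 82.9% on days 14 and 21, and 81.3% to 88.4% on day 35. The day 35 libraries also had the lowest medians over the genes tested, 0.68 to 1.26 on the log2(RPKM + 0.5) scale, against 1.52 to 1.95 on the middle days and 1.75 to 1.87 on day 3. Each library was therefore centred on its own median, and differences are given on that centred log2(RPKM + 0.5) scale. They are middle days minus ends, ± SE, so genes lower on the middle days have negative values. The scale understates changes of genes near 0, and it lifts such genes in libraries with low medians, as on day 35. *Tgfbi*, for example, had means of 0.12 RPKM on day 21 and 0.00767 on day 35, but centred means of -2.31 and -1.97. Some genes near 0 were thereby called lower on the middle days. Before centring, the median gene was 0.30 higher on the middle days than at the ends.

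The sequencing run named for each library moves with the groups. Replicate 1 of all days came from run 230, replicates 2 and 3 of day 3 from run 243, those of days 14 and 21 from run 247, and those of day 35 from run 246. For replicates 2 and 3 the run and the side of the comparison therefore cannot be told apart, and only replicate 1 compares the days within 1 run. Values for both sets are given beside several of the largest differences. In a fit with the run as a term, the day 35 level rests on replicate 1 alone. Among the untreated libraries, run 246 held only replicates 2 and 3 of day 35, so the term absorbs both. Differences and counts from that fit, where given below, are therefore not a comparison with 3 libraries of day 35. Since the samples are bulk RNA, fewer cells of a type and less RNA per cell cannot be told apart either.

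The defining markers gave a mixed picture of the label. Of the osteoblast markers, *Col1a1* was at least 55.2 RPKM and *Sp7* at least 2.39 in all 18 libraries, and *Runx2* did not pass the filter on low values, at 0.116 to 0.561 RPKM. The osteocyte markers *Dmp1*, *Phex*, *Mepe*, *Sost*, *Fgf23* and *Pdpn* were all below 1 RPKM in each library, day 35 included, and whether the gene models or the share of ribosomal RNA lowered these values was not tested. Of the other cell types' defining markers, *Cdh5* (endothelium), *Myod1* and *Ckm* (muscle), *Emr1* (macrophage), *Col9a1* (cartilage) and *Snap25* (neuron) were listed at 0 in all libraries. Of the other cell types' remaining markers, *Col2a1* and *Col10a1* (cartilage) and *Adipoq* (fat) passed 1 RPKM in any library, at most 6.21, 1.73 and 2.44 RPKM. Their part in the results was not tested.

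Among all genes tested, 12.8% were called higher and 10.1% lower on the middle days. The shares of the gene lists below are to be read against these. The order of the means and the test chose these genes from the same values, so the counts describe these libraries. When each of the 4 pairs of a middle day and an end had to pass on its own, 248 genes (2.5%) were higher and 101 (1.02%) lower. In 426 genes (4.29%) all 6 middle libraries lay above all 6 end libraries, and in 230 genes (2.32%) all lay below. The difference was at least 1 log2 unit in 234 of the genes called higher and in 161 of those called lower.

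The balance of higher and lower calls depended on how the libraries were scaled, and far more so for the lower genes. With RPKM as listed 2585 genes were called higher and 119 lower, and with RPKM rescaled to the rows other than ribosomal RNA 1965 and 348. Quantile normalization gave 1287 and 910, and scaling the libraries to equal medians before the 0.5 was added gave 1213 and 657. Of the 1275 genes called higher, 1055 kept their order of day means in all 4 of these scalings, and of the 1004 called lower only 148 did. A gene is said below to have kept its order where it was among these, and the scaling that broke the order is named where it was not.

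Days 7 and 28 lay between their neighbours for most of the called genes. On the centred scale the day 7 mean fell between those of days 3 and 14 for 874 of the 1275 higher genes, and the day 28 mean between those of days 21 and 35 for 972. For the lower genes these numbers were 595 and 707 of 1004. The highest of the 6 day means fell on day 7 for 245 of the higher genes, day 14 for 439, day 21 for 492 and day 28 for 99. The lowest fell on these days for 200, 310, 382 and 112 of the lower genes.

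**Figure D1:**
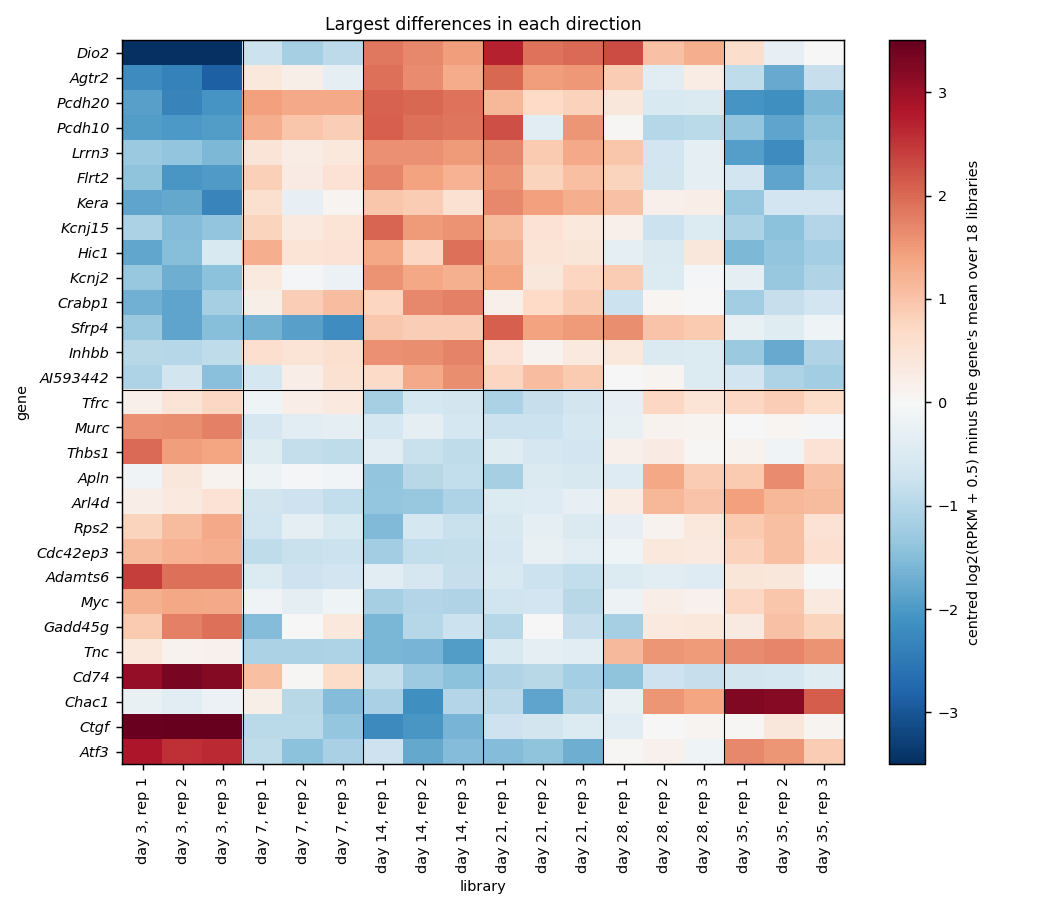
Centred log2(RPKM + 0.5) of 14 of the 15 largest differences with higher and all 15 with lower values on the middle days (rows) in the 18 untreated libraries (columns, by day and replicate), each gene relative to its mean over the 18, with colours that stop at 3.5 in either direction. The upper 14 genes are red or near white on days 14 and 21, except *Pcdh10* in day 21 replicate 2. The lower 15 are blue or near white there, with *Ctgf*, *Atf3* and *Cd74* highest on day 3 and *Chac1* and *Tnc* on day 35.

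The largest rise among the named genes was that of *Dio2*, the type 2 deiodinase that turns thyroxine into active thyroid hormone. Its libraries held 0.827, 0.583 and 0.283 RPKM on day 3, 70.6, 84.3 and 73.1 on day 14, 138, 74.8 and 82.8 on day 21, and 24.6, 11.0 and 10.5 on day 35. The middle libraries lay above every end library, and day 35 stayed above day 3. The middle days were higher by 4.15 ± 0.22 (adjusted p = 4.35e-09), and the difference was 4.03 in replicate 1 and 4.21 in replicates 2 and 3. On day 7 the mean was already 13.1 ± 1.87 RPKM, and on day 28 it was still 59.8 ± 39.9 (SD, n = 3).

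*Dio3*, the deiodinase that inactivates thyroid hormone, was higher on the middle days as well. Its means ± SD (n = 3) were 6.03 ± 0.609, 15.3 ± 4.26, 14.2 ± 1.58 and 3.14 ± 0.893 RPKM on days 3, 14, 21 and 35, a difference of 1.34 ± 0.11 (adjusted p = 1.69e-07), with no overlap between the middle and end libraries. The thyroid hormone receptor gene *Thra* was higher by 0.61 ± 0.18, and *Klf9*, a known thyroid hormone target, was lower, at -0.80 ± 0.16 (adjusted p = 0.000996), with means of 10.6 ± 2.12, 5.96 ± 1.79, 7.59 ± 0.794 and 9.29 ± 3.76 RPKM on days 3, 14, 21 and 35. Of the 8 tested members of the thyroid hormone and deiodinase list these 3 (37.5%) were higher and *Klf9* alone (12.5%) was lower, and all 4 kept their order.

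The *Dio2* promoter is shown because cyclic AMP is a known inducer of this gene. The RefSeq promoter window (GRCm38.p6, 250 bases before to 50 after the start) was searched on both strands for the cyclic AMP response element TGACGTCA, which reads the same on both strands and occurs in 1.79% of 32851 promoter windows. A match lies 95 to 88 bases before the start, within the stretch chr12:90739100-90739159 on the minus strand, with the match in capitals. A match is a description of the sequence and not a measured site.
*Dio2*: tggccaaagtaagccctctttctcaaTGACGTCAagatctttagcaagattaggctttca

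*Agtr2*, the type 2 angiotensin receptor, came next in size and was close to 0 at both ends. It measured 0.404, 0.350 and 0.125 RPKM on day 3, 12.9, 14.5 and 11.3 on day 14, 15.2, 9.61 and 10.3 on day 21, and 1.09, 0.241 and 0.631 on day 35. No end library reached the lowest middle library, and the difference was 3.47 ± 0.23 (adjusted p = 2.85e-08), with 3.52 in replicate 1 and 3.44 in replicates 2 and 3. *Agt*, which encodes the precursor of angiotensin, was called lower, mainly against day 35, at -1.29 ± 0.17 (adjusted p = 2.33e-05). It had means of 1.39 ± 0.21, 0.911 ± 0.22, 0.824 ± 0.144 and 3.4 ± 0.587 RPKM on days 3, 14, 21 and 35. Days 14 and 21 were only -0.41 and -0.30 from day 3 (limma, adjusted p = 0.185 and 0.317), and -2.28 and -2.16 from day 35.

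Other receptors for small extracellular signals rose with *Agtr2*. *S1pr2* and *S1pr3*, receptors for sphingosine 1-phosphate, were higher by 1.23 ± 0.10 and 1.01 ± 0.12, and *Ednra*, an endothelin receptor, by 1.84 ± 0.16. *Ednra* had means of 0.834 ± 0.41, 11.3 ± 4.26, 10.8 ± 0.425 and 4.63 ± 1.29 RPKM on days 3, 14, 21 and 35. Its days 14 and 21 were only 0.35 and 0.56 above day 35 (limma, adjusted p = 0.312 and 0.118), and its highest centred mean was on day 28. *S1pr1* was called lower, at -0.52 ± 0.12 (adjusted p = 0.00405), but it kept that order only when libraries were scaled to equal medians, and its means of 178 ± 18, 87.1 ± 6.9, 97.8 ± 15.7 and 67.6 ± 25.9 RPKM on days 3, 14, 21 and 35 are highest on day 3. Of 24 tested members of the G protein-coupled receptor list 8 (33.3%) were higher and 3 (12.5%) lower, with a median of 0.29 against 0.00 over all genes, and 8 and 2 of them kept their order. *Rgs16*, which shortens G protein signals, was the third lower gene, at -1.45 ± 0.22.

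Adhesion molecules of the cadherin family supplied the next largest differences. *Pcdh20*, a protocadherin, measured 1.27, 0.891 and 1.22 RPKM on day 3, 23.2, 30.3 and 28.2 on day 14, 13.4, 9.04 and 10.0 on day 21, and 0.631, 0.423 and 0.562 on day 35. *Pcdh10*, another protocadherin, measured 0.605, 0.612 and 0.701 RPKM on day 3, 14.9, 17.9 and 17.3 on day 14, 18.5, 2.41 and 10.7 on day 21, and 0.673, 0.229 and 0.268 on day 35. Both stood above the ends in all 6 middle libraries. The difference of *Pcdh20* was 3.46 ± 0.16 (adjusted p = 7.75e-10), with 3.61 in replicate 1 and 3.39 in replicates 2 and 3. That of *Pcdh10* was 3.30 ± 0.32 (adjusted p = 1.04e-06), with 3.83 in replicate 1 and 3.04 in replicates 2 and 3, although *Pcdh10* ranged widely on day 21 and replicate 2 was its lowest middle library.

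Cadherins at other expression levels rose too. *Cdh11*, the cadherin typical of osteoblasts and their mesenchymal precursors, had means ± SD (n = 3) of 107 ± 4.05, 232 ± 41.8, 209 ± 37.9 and 78.7 ± 23.4 RPKM on days 3, 14, 21 and 35 and was higher by 0.96 ± 0.11 (adjusted p = 5.47e-06). *Dchs1*, a large cadherin of planar cell polarity, was higher by 1.45 ± 0.14, with means of 0.624 ± 0.111, 3.89 ± 0.317, 3.03 ± 0.892 and 0.723 ± 0.351 RPKM on days 3, 14, 21 and 35. Of the 9 tested cadherins and protocadherins 5 (55.6%) were higher and 0 lower, against 12.8% and 10.1% of all genes. All 5 kept their order, and the list's median was 0.72.

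*Flrt2* and *Lrrn3*, leucine-rich repeat membrane proteins, were both higher. *Flrt2*, a ligand of guidance receptors and of latrophilins, measured 10.2, 6.68 and 7.22 RPKM on day 3, 77.7, 84.2 and 75.1 on day 14, 76.7, 42.1 and 52.0 on day 21, and 12.2, 4.27 and 5.35 on day 35. Its difference was 2.81 ± 0.24 (adjusted p = 3.61e-07), with 2.66 in replicate 1 and 2.89 in replicates 2 and 3. *Lrrn3* was higher by 3.05 ± 0.23 (adjusted p = 8.71e-08), with 3.25 in replicate 1 and 2.95 in replicates 2 and 3 and means of 3.51 ± 0.252, 30.9 ± 4.57, 23.1 ± 6.7 and 1.25 ± 0.332 RPKM on days 3, 14, 21 and 35. In neither gene did a middle library overlap an end library. Among the semaphorin, plexin and slit genes 3 of 23 tested (13%) were higher and 2 (8.7%) lower, close to the shares of all genes. The higher ones were *Sema3c*, a secreted semaphorin, by 0.91 ± 0.13, and the receptors *Plxnd1* by 0.70 ± 0.09 and *Plxna1* by 0.57 ± 0.09.

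**Figure D2:**
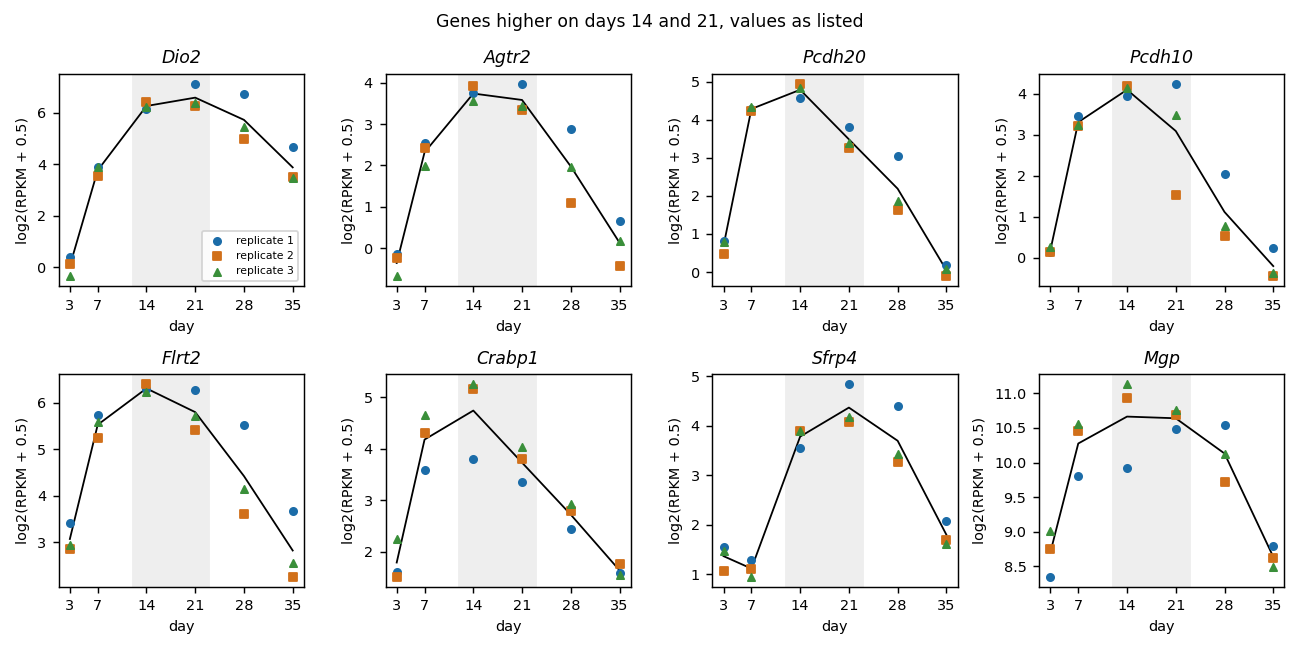
RPKM as listed, on the log2(RPKM + 0.5) axis, by day for 8 genes higher on days 14 and 21 (shaded), with 1 point a library and a line through the mean of the 3 logs. *Pcdh20*, *Pcdh10* and *Flrt2* were highest on day 14 and *Sfrp4* and *Dio2* on day 21, and in all 8 panels the day 14 and day 21 points lie above those of days 3 and 35.

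*Crabp1*, which binds retinoic acid inside cells, measured 2.56, 2.36 and 4.27 RPKM on day 3, 13.5, 35.4 and 37.8 on day 14, 9.76, 13.5 and 15.9 on day 21, and 2.52, 2.92 and 2.44 on day 35. Every library of days 14 and 21 lay above all those of days 3 and 35, and the difference was 2.22 ± 0.22 (adjusted p = 1.52e-06). It was lower in replicate 1 than in replicates 2 and 3 on both middle days. *Crabp2*, its relative, had means ± SD (n = 3) of 3.7 ± 1.56, 10.7 ± 3.07, 6.27 ± 2.5 and 2.06 ± 1.09 RPKM on days 3, 14, 21 and 35, and the difference was 1.15 ± 0.19 (adjusted p = 0.000228). In the vitamin D and nuclear receptor list 4 of 13 tested genes (30.8%) were higher, both of these included. The 2 lower ones (15.4%), *Nr4a2* and *Per1*, lost their order in 3 of the other scalings.

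The remaining large rises included channel and regulator genes. *Kcnj15* and *Kcnj2*, inwardly rectifying potassium channels, were higher by 2.45 ± 0.17 (adjusted p = 5.41e-08) and 2.31 ± 0.23 (adjusted p = 1.17e-06), *Kcnj2* at 7.87 ± 1.02, 60.5 ± 4.34, 37.5 ± 14.4 and 7.24 ± 4.21 RPKM on days 3, 14, 21 and 35. *Hic1*, a transcriptional repressor known from quiescent mesenchymal progenitors, measured 1.25, 1.80 and 4.12 RPKM on day 3, 12.8, 11.0 and 26.3 on day 14, 13.1, 7.03 and 6.91 on day 21, and 0.973, 0.931 and 0.779 on day 35 and was higher by 2.36 ± 0.26 (adjusted p = 3.99e-06). *AI593442*, a gene with no established function, was higher by 2.10 ± 0.21. None of the 4 had a middle library within the range of the ends.

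*Mgp*, matrix Gla protein, which restrains calcification, was an abundant message, with 325, 430.4 and 516 RPKM on day 3, 972, 1955 and 2248 on day 14, 1428, 1649 and 1726 on day 21, and 444, 394 and 359.9 on day 35. The lowest middle library, day 14 replicate 1, was above every end library, and the difference was 1.68 ± 0.15 (adjusted p = 4.71e-07), with 1.56 in replicate 1 and 1.75 in replicates 2 and 3. *Enpp1*, which makes pyrophosphate, another inhibitor of mineral growth, was higher by 1.0 ± 0.13 (adjusted p = 2.71e-05), with means of 0.47 ± 0.0911, 1.7 ± 0.475, 1.28 ± 0.179 and 0.163 ± 0.0601 RPKM on days 3, 14, 21 and 35.

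*Enpp2*, the enzyme autotaxin that makes lysophosphatidic acid, was higher by 1.79 ± 0.23 (adjusted p = 1.82e-05). Of 15 tested genes of mineralization and phosphate handling 4 (26.7%) were higher and 0 lower, against 12.8% and 10.1% of all genes. *Slc4a2* was the fourth, and the median was -0.03. *Spp1*, osteopontin, which binds mineral, measured 4.49, 2.59 and 3.89 RPKM on day 3, 13.8, 22.8 and 27.7 on day 14, 14.9, 11.1 and 19.1 on day 21, and 6.81, 9.03 and 3.84 on day 35. Its difference was 1.48 ± 0.17 (adjusted p = 5.13e-06), and day 35 replicate 2 came within the spread of the middle days after centring.

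The matrix proteins on this side were small in number. *Kera*, keratocan, a small leucine-rich proteoglycan described in osteoblasts and cornea, was at most 0.597 RPKM in the end libraries and at least 4.25 in the middle ones, a difference of 2.57 ± 0.19 (adjusted p = 6.63e-08). *Fbn1*, the microfibril protein fibrillin, was higher by 1.11 ± 0.13 (adjusted p = 1.01e-05), and *Col8a1*, a short-chain collagen, by 0.75 ± 0.08 (adjusted p = 4.29e-06), with means of 140 ± 18.1, 221 ± 60.3, 269 ± 10.1 and 99.2 ± 25.5 RPKM on days 3, 14, 21 and 35. Of 31 tested proteoglycan and matricellular genes 5 were higher (16.1%) and 3 lower (9.68%), shares close to those of all genes.

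Secreted regulators of Wnt signalling were higher, with receptors beside them. *Sfrp4*, a secreted Wnt antagonist, measured 2.42, 1.61 and 2.27 RPKM on day 3, 11.2, 14.4 and 14.3 on day 14, 28.1, 16.3 and 17.7 on day 21, and 3.73, 2.74 and 2.56 on day 35. Its difference was 2.19 ± 0.15 (adjusted p = 4.92e-08), and its day 7 mean ± SD was 1.68 ± 0.257 RPKM against 2.1 ± 0.435 on day 3 (n = 3). *Sfrp1*, its relative, was higher by 1.30 ± 0.09 (adjusted p = 5.45e-08), with means of 35.4 ± 2.44, 64.2 ± 12.4, 65.9 ± 3.9 and 12.6 ± 2.8 RPKM on days 3, 14, 21 and 35. The receptor genes *Fzd2*, at 1.08 ± 0.09, and *Lrp6*, at 1.01 ± 0.09, also rose, without overlap between middle and end libraries.

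Of 28 tested Wnt pathway genes 9 (32.1%) were higher and 1 (3.57%) lower, against 12.8% and 10.1% of all genes. All 10 kept their order, and the median was 0.20. The lower one was *Wisp1*, a matricellular protein induced by Wnt signalling, at -1.17 ± 0.17 (adjusted p = 6.96e-05), with means of 2.36 ± 0.403, 1.08 ± 0.367, 0.636 ± 0.276 and 1.54 ± 0.306 RPKM on days 3, 14, 21 and 35.

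Ligands of the BMP and TGF-beta family divided by direction. *Bmp2*, a strong inducer of osteoblast differentiation, measured 0.112, 0.0360 and 0.153 RPKM on day 3, 5.02, 3.35 and 4.99 on day 14, 3.71, 2.77 and 3.00 on day 21, and 0.681, 0.310 and 0.232 on day 35. *Gdf6*, a BMP of joints and skeletal patterning, was higher by 1.91 ± 0.12 (adjusted p = 1.59e-08), with means of 0.838 ± 0.284, 4.59 ± 0.941, 3.67 ± 0.184 and 0.257 ± 0.175 RPKM on days 3, 14, 21 and 35, and *Bmp2* by 2.23 ± 0.14 (adjusted p = 1.05e-08). *Inhbb*, a subunit of activins and inhibins, was higher by 2.15 ± 0.15 (adjusted p = 4.44e-08) and was 44.9 ± 8.75 RPKM on day 14 but 15.2 ± 2.42 on day 21 (SD, n = 3). No middle library of these 3 genes overlapped the ends.

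*Nog*, noggin, which captures BMPs outside the cell, was lower where *Bmp2* was higher. It measured 1.45, 1.34 and 3.18 RPKM on day 3, 0.250, 0.307 and 0.235 on day 14, 0.635, 0.409 and 0.663 on day 21, and 2.24, 5.64 and 2.23 on day 35. The difference was -1.99 ± 0.25 (adjusted p = 1.82e-05), with -1.40 in replicate 1 and -2.28 in replicates 2 and 3, and all middle libraries lay below all end libraries. *Gdf15*, a stress-induced member of the family, was lower, at -1.04 ± 0.13 (adjusted p = 1.51e-05), and *Ltbp2*, a microfibril protein of the latent TGF-beta binding family, was higher by 1.25 ± 0.11. Of 39 tested members 10 (25.6%) were higher and 9 (23.1%) lower, 9 and 2 of which kept their order; the lower *Id2* lost it as listed, and *Tgfbi* in all 4 scalings.

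The IGF system held 4 higher (26.7%) and 4 lower (26.7%) genes of 15 tested, against 12.8% and 10.1% of all genes. *Igf1*, the growth factor itself, measured 3.96, 3.89 and 1.23 RPKM on day 3, 2.51, 6.94 and 4.45 on day 14, 6.48, 3.35 and 6.22 on day 21, and 0.346, 0.164 and 0.430 on day 35. The difference was 1.39 ± 0.26 (adjusted p = 0.000571), yet replicates 1 and 2 of day 3 lay among the middle libraries. *Igfbp3*, a binding protein, was higher by 1.94 ± 0.19 (adjusted p = 1.52e-06), with means of 0.549 ± 0.0894, 5.51 ± 1.1, 6.38 ± 1.88 and 1.38 ± 1.05 RPKM on days 3, 14, 21 and 35, and *Igfbp5*, another, by 1.43 ± 0.12, although its order broke when libraries were scaled before the 0.5 was added.

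*Igf2r*, which clears IGF2, was higher by 0.43 ± 0.08. *Igf2* had the means 9 ± 1.53, 12.5 ± 1.41, 21.3 ± 2.45 and 9.53 ± 1.18 RPKM on days 3, 14, 21 and 35, a contrast of 0.49 ± 0.11 (adjusted p = 0.00182), and met the order as listed but not after centring. The lower members were *Igf1r*, *Irs2*, *Pappa* and *Igfbp2*, with differences of -0.82, -0.97, -1.06 and -0.78. None of them kept its order, since *Igf1r*, *Irs2* and *Pappa* were lowest on day 35 as listed and *Igfbp2* also lost its order there.

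Of 29 tested proteases of the matrix and their inhibitors 8 (27.6%) were higher and 4 (13.8%) lower, and 6 and 1 of these kept their order. *Mmp3*, stromelysin, had means ± SD (n = 3) of 0.344 ± 0.108, 10 ± 1.2, 7.73 ± 2.74 and 3.45 ± 1.5 RPKM on days 3, 14, 21 and 35 and was higher by 2.06 ± 0.22 (adjusted p = 3.04e-06), with overlap between day 35 and the middle days after centring. *Timp2*, an inhibitor of these enzymes, was abundant at 136 ± 4.47, 299 ± 27.3, 292 ± 44.6 and 115 ± 45.9 RPKM on days 3, 14, 21 and 35 and higher by 0.97 ± 0.12 (adjusted p = 1.6e-05). *Adamts4*, an aggrecanase, was higher by 0.99 ± 0.13 (adjusted p = 2.47e-05), and with the sequencing run as a term the difference was 0.80 (limma, adjusted p = 6.46e-05) but the order of the means was lost.

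The lower member of the protease list that kept its order was *Adamts6*, a relative of the aggrecanases, at -1.84 ± 0.12 (adjusted p = 2.49e-08), with 12.3 ± 2.1, 1.44 ± 0.166, 1.07 ± 0.223 and 1.6 ± 0.674 RPKM on days 3, 14, 21 and 35.

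Limb patterning genes were higher as a group in count. Of 21 tested Hox, Tbx and related genes 10 (47.6%) were higher and 0 lower, against 12.8% and 10.1% of all genes. Of the 10, 9 kept their order, and the median was 0.42. Without day 35 replicate 3 the list held 8 higher genes and 1 lower. *Pitx1*, which specifies hindlimb identity, measured 6.80, 6.94 and 7.46 RPKM on day 3, 15.2, 23.7 and 21.6 on day 14, 19.4, 19.3 and 19.5 on day 21, and 4.21, 4.77 and 4.65 on day 35. It was higher by 1.41 ± 0.10 (adjusted p = 7.16e-08), with no overlap. *Hoxc10*, a posterior Hox gene, was higher by 0.65 ± 0.09 (adjusted p = 3.09e-05), *Prrx1*, a limb mesenchyme factor, by 0.57 ± 0.08 (adjusted p = 5.73e-05), and *Tbx3*, a T-box repressor, by 1.13 ± 0.13 (adjusted p = 6.35e-06).

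*Tnfsf11*, the osteoclast-inducing cytokine RANKL, was highest on day 14. It measured 2.65, 2.41 and 3.15 RPKM on day 3, 8.71, 11.0 and 9.84 on day 14, 6.17, 3.30 and 4.22 on day 21, and 1.55, 0.940 and 0.821 on day 35, and the difference was 1.36 ± 0.16 (adjusted p = 7.18e-06) with no overlap. Of the 12 tested osteocyte genes it and *Capg*, an actin-capping protein, were higher (16.7%) and *Irx5*, a homeobox gene, was lower (8.33%). *Cxcl16*, a membrane-bound chemokine, was higher by 1.28 ± 0.12 (adjusted p = 6.87e-07), *Ptges*, prostaglandin E synthase, by 1.27 ± 0.16 (adjusted p = 1.33e-05), and *Cxcl5* by 1.06 ± 0.15. Of 20 tested inflammatory genes 5 (25%) were higher and 2 (10%) lower, against 12.8% and 10.1% of all genes, and 3 and 0 kept their order. *Clu*, clusterin, was the largest of 4 higher of 13 complement and acute phase genes (30.8%), by 1.10 ± 0.09 (adjusted p = 3.3e-07). Its day 14 was only 0.15 above day 35, and its day 21 was 0.80 above (limma, adjusted p = 0.48 and 0.000459).

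Metabolic genes showed smaller differences. *Ddit4*, an inhibitor of mTORC1 that hypoxia and glucocorticoids induce, was higher by 1.14 ± 0.12 (adjusted p = 3.04e-06), with means of 8.48 ± 0.857, 30.4 ± 6.16, 29.9 ± 6.54 and 13.5 ± 2.4 RPKM on days 3, 14, 21 and 35. After centring its days 14 and 21 were only 0.33 and 0.50 above day 35 (limma, adjusted p = 0.192 and 0.0606), and its highest mean was on day 7. *Cebpa*, a factor of fat and myeloid cells, was higher by 1.07 ± 0.26, one of 2 of 8 tested adipocyte genes, while the summed RPKM of the 24 adipocyte genes in the files ran from 71.7 to 186 on days 14 and 21 and from 69.7 to 258 at the ends. Of 30 cholesterol and fatty acid genes 4 were higher (13.3%), led by *Mvd* at 0.55 ± 0.09 and *Srebf1* at 0.46 ± 0.08, and 3 kept their order. Of 29 lysosome and autophagy genes 3 were higher (10.3%), with *Ctsb*, cathepsin B, at 0.83 ± 0.09 (adjusted p = 2.54e-06).

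**Figure D3:**
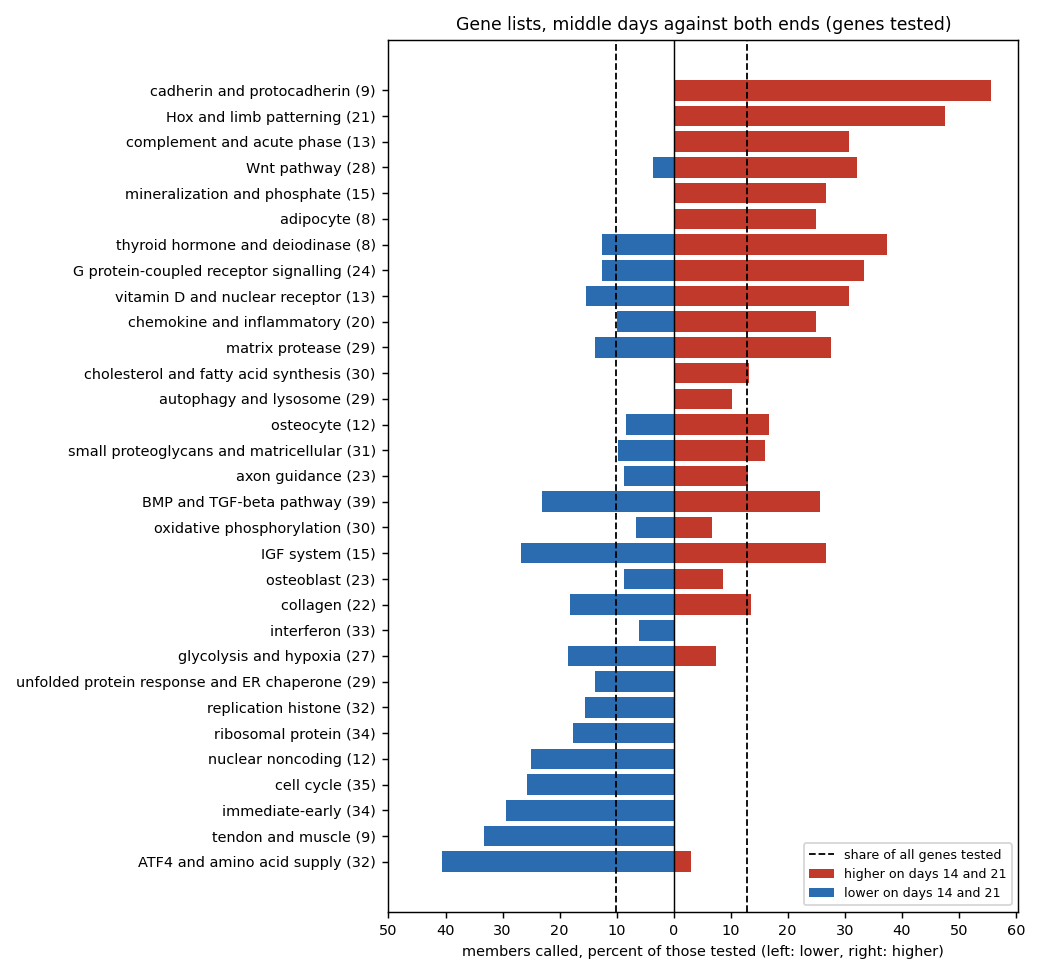
Percent of the tested members of each gene list called higher (right, red) or lower (left, blue) on days 14 and 21 than on days 3 and 35, with the number tested in brackets, for the lists with at least 8 members tested. The dashed lines mark the shares of all 9933 genes, 12.8% and 10.1%. The cadherin and Hox lists reach furthest to the right and the ATF4 list furthest to the left.

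*Atf3*, a stress-induced transcription factor, showed the largest fall among the named genes. It measured 43.7, 38.3 and 40.6 RPKM on day 3, 2.69, 1.57 and 2.00 on day 14, 1.55, 1.57 and 1.23 on day 21, and 13.8, 10.6 and 4.96 on day 35. No middle library reached the lowest end library, and the difference was -3.46 ± 0.17 (adjusted p = 2.25e-09), with -3.38 in replicate 1 and -3.50 in replicates 2 and 3. Day 7 was already low, at a mean ± SD of 2.71 ± 0.572 RPKM (n = 3).

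*Ctgf*, connective tissue growth factor, a matricellular protein induced by TGF-beta and YAP, was highest by far on day 3. It measured 211, 254 and 248 RPKM on day 3, 2.97, 4.82 and 6.64 on day 14, 10.4, 10.4 and 12.1 on day 21, and 13.5, 15.1 and 9.25 on day 35. The difference was -3.15 ± 0.12 (adjusted p = 2.32e-10), with -3.22 in replicate 1 and -3.12 in replicates 2 and 3, and the order held in all scalings, but as listed day 21 overlapped day 35. *Myc*, the growth-promoting transcription factor, measured 17.3, 19.9 and 19.8 RPKM on day 3, 2.37, 3.74 and 3.67 on day 14, 3.80, 3.65 and 3.00 on day 21, and 8.39, 8.44 and 4.02 on day 35, a difference of -1.92 ± 0.11 (adjusted p = 6.71e-09) without overlap.

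Of 34 tested immediate-early genes 0 were higher and 10 (29.4%) lower, with a median of -0.59, and 6 of the 10 kept their order. *Gadd45g*, a stress sensor, was the fourth named, at -1.97 ± 0.34 (adjusted p = 0.000295). With the sequencing run as a term 6 of the list were lower.

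Some matricellular proteins of adhesion and tension were lower. *Tnc*, tenascin C, measured 28.2, 25.3 and 26.2 RPKM on day 3, 5.71, 7.65 and 6.09 on day 14, 13.9, 15.1 and 14.7 on day 21, and 49.6, 43.4 and 30.9 on day 35. The difference was -2.0 ± 0.09 (adjusted p = 7.75e-10), with -2.08 in replicate 1 and -1.96 in replicates 2 and 3, without overlap, and day 35 was above day 3. *Thbs1*, thrombospondin 1, measured 684, 508 and 493 RPKM on day 3, 113, 115 and 107 on day 14, 120.4, 102 and 98.1 on day 21, and 135, 96.7 and 117 on day 35. Its difference was -1.51 ± 0.14 (adjusted p = 5.96e-07), and as listed the day 35 libraries overlapped the middle ones although the order of the means held. *Tnn*, tenascin N, a protein of bone-forming surfaces, was lower, at -1.01 ± 0.12 (adjusted p = 8.3e-06), with means of 14.7 ± 1.84, 8.45 ± 2.93, 7.24 ± 1.22 and 11.5 ± 2.92 RPKM on days 3, 14, 21 and 35.

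Regulators of cell shape and a secreted peptide were low on the same days. *Cdc42ep3*, an effector of the GTPase CDC42, measured 218, 251 and 266 RPKM on day 3, 36.4, 63.0 and 64.4 on day 14, 62.2, 73.9 and 69.8 on day 21, and 126, 128 and 72.6 on day 35, a difference of -1.71 ± 0.11 (adjusted p = 2.85e-08). *Apln*, apelin, a peptide of vascular signalling, was lower, at -1.56 ± 0.24 (adjusted p = 0.000107), with means of 19.3 ± 4.07, 8.26 ± 2.79, 8.87 ± 1.93 and 23.4 ± 8.17 RPKM on days 3, 14, 21 and 35, and *Arl4d*, a small GTPase, at -1.61 ± 0.13 (adjusted p = 2.45e-07). *Tfrc*, the transferrin receptor that brings iron into cells, was lower, at -1.43 ± 0.17 (adjusted p = 8.99e-06), with means of 10 ± 2.33, 3.96 ± 1.51, 3.14 ± 0.502 and 6.75 ± 1.69 RPKM on days 3, 14, 21 and 35. *Murc*, a caveola protein, was lower, at -1.44 ± 0.09, but its order was lost as listed, with means of 32.5 ± 3.17, 6.87 ± 1.8, 4.99 ± 0.371 and 5.49 ± 1.34 RPKM on days 3, 14, 21 and 35.

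**Figure D4:**
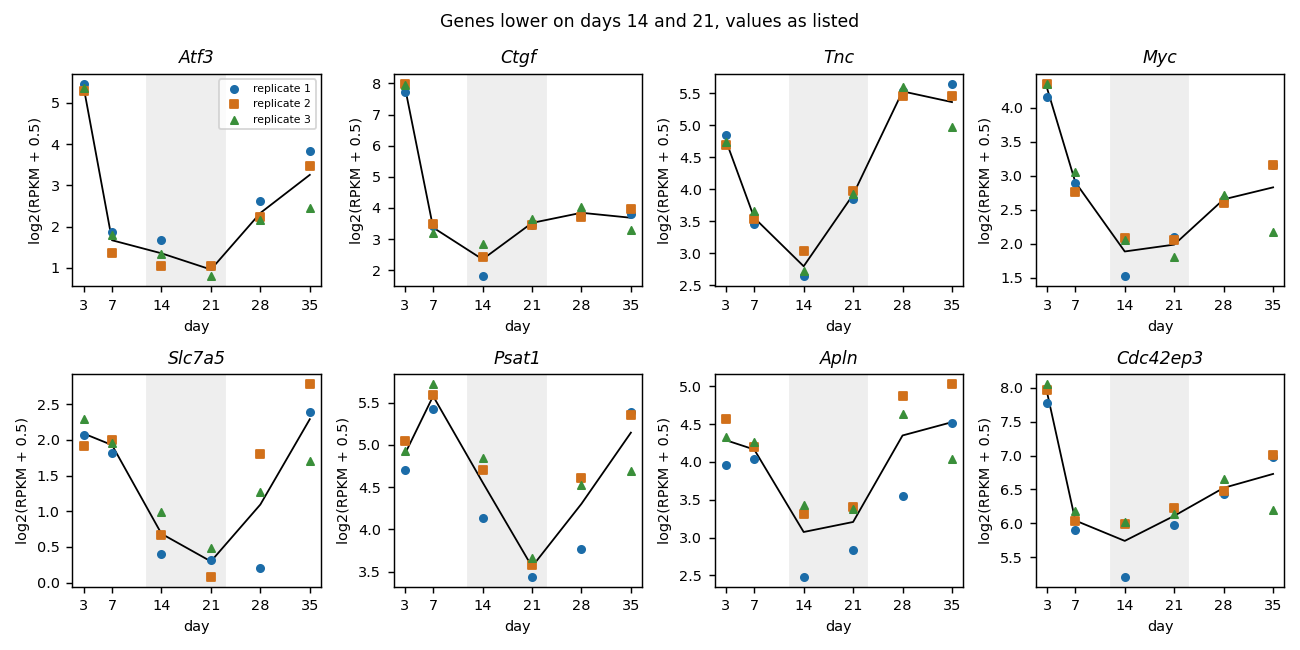
RPKM as listed, on the log2(RPKM + 0.5) axis, by day for 8 genes lower on days 14 and 21 (shaded), with 1 point a library and a line through the mean of the 3 logs. *Ctgf* and *Cdc42ep3* are far higher on day 3 than on any later day, while the means of *Tnc*, *Slc7a5*, *Psat1* and *Apln* are higher on day 35 than on day 3.

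Genes of amino acid supply that ATF4 is known to drive formed the list with the largest share of lower genes. Of 32 tested members 13 (40.6%, against 10.1% of all genes) were lower and 1, *Ddit4*, was higher, with a median of -0.81, and 10 of the 13 kept their order. The list held 14 lower genes with the run as a term and 13 without day 35 replicate 3.

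*Slc7a5*, a transporter of large neutral amino acids, measured 3.70, 3.25 and 4.39 RPKM on day 3, 0.818, 1.08 and 1.49 on day 14, 0.750, 0.557 and 0.904 on day 21, and 4.75, 6.39 and 2.75 on day 35. No middle library overlapped the ends, and the difference was -2.0 ± 0.25 (adjusted p = 1.39e-05), with -1.95 in replicate 1 and -2.02 in replicates 2 and 3. *Psat1*, an enzyme of serine synthesis, measured 25.5, 32.6 and 30.0 RPKM on day 3, 17.1, 25.5 and 28.2 on day 14, 10.3, 11.4 and 12.2 on day 21, and 41.6, 40.3 and 25.4 on day 35 and was lower, at -1.26 ± 0.16 (adjusted p = 2.3e-05). Its middle and end libraries overlapped as listed and not after centring, and its highest mean as listed was on day 7.

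*Chac1*, a glutathione-degrading enzyme and ATF4 target, was highest by far on day 35. It measured 1.91, 1.83 and 2.23 RPKM on day 3, 0.624, 0.240 and 1.14 on day 14, 0.925, 0.213 and 0.766 on day 21, and 18.8, 15.4 and 5.47 on day 35. The difference was -2.63 ± 0.35 (adjusted p = 2.68e-05), with -2.51 in replicate 1 and -2.69 in replicates 2 and 3, and not all 4 day pairs passed on their own. *Eprs*, a tRNA synthetase, was lower, at -1.0 ± 0.13 (adjusted p = 1.66e-05), and *Vldlr*, a lipoprotein receptor that stress can induce, at -1.52 ± 0.17 (adjusted p = 4.91e-06), with means of 0.521 ± 0.214, 0.0773 ± 0.0131, 0.299 ± 0.264 and 1.96 ± 0.581 RPKM on days 3, 14, 21 and 35. *Asns*, asparagine synthetase, had a contrast of -1.21 ± 0.22 (adjusted p = 0.000422) but did not meet the order, since its day 14 mean of 5.62 RPKM was above the day 3 mean of 3.95.

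Promoters of the lower genes are shown because ATF4 with C/EBP partners is known to bind composite elements upstream of such genes. TGATGNAA, N being any base, was searched on both strands of the RefSeq windows and occurs in 3.97% of all 32851. Of the 13 lower members 10 had a window, and 5 of these held a match in at least 1 window, namely *Aars*, *Chac1*, *Gars*, *Vldlr* and *Yars*. The share of all windows counts single windows and this one counts genes, so they cannot be compared. The list was made of known ATF4 targets, in which such matches can be found whatever their expression here, and its other members were not counted. The stretches below, with the match, here in its reverse complement form, in capitals, are from *Chac1* (chr2:119351023-119351082, plus strand), *Aars*, alanyl-tRNA synthetase (chr8:111033704-111033763, plus strand), and, as an immediate-early gene known to follow ATF4, *Atf3* (chr1:191183410-191183469, minus strand), in GRCm38.p6.
*Chac1*: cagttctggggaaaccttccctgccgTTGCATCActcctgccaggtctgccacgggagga
*Aars*: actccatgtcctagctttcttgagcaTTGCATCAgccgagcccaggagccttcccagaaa
*Atf3*: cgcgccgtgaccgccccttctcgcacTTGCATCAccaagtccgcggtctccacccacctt
The matches begin 193, 112 and 110 bases before the start of *Chac1*, *Aars* and *Atf3*, in that order. They are letters in the sequence, and binding was not measured.

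The unfolded protein response is known to share genes with ATF4 signalling. Of 29 tested chaperones and regulators 0 were higher and 4 (13.8%, close to the 10.1% of all genes) lower, and 8 were lower with the run as a term. *Ppp1r15a*, which reverses the arrest of translation under stress, was lower, at -1.08 ± 0.13 (adjusted p = 1.34e-05), with means of 9.38 ± 1.27, 7.45 ± 1.96, 7.7 ± 0.627 and 19.6 ± 7.71 RPKM on days 3, 14, 21 and 35. *Edem1*, of ER-associated degradation, was lower, at -0.58 ± 0.18, and both kept their order, whereas *Hsp90b1* and *Atf6* lost theirs as listed. On days 14 and 21 *Ppp1r15a* was only -0.32 and -0.05 from day 3 (limma, adjusted p = 0.187 and 0.835), and *Edem1* -0.29 and -0.12 (0.376 and 0.713).

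Some hypoxia-responsive genes were lower too. *Vegfa*, the vascular growth factor, measured 3.26, 3.17 and 3.21 RPKM on day 3, 0.742, 1.11 and 1.50 on day 14, 0.699, 0.552 and 0.532 on day 21, and 1.26, 1.95 and 0.802 on day 35. The difference was -1.26 ± 0.12 (adjusted p = 7.64e-07) after centring without overlap, though as listed day 14 and day 35 overlapped. *Ndrg1*, a hypoxia and stress gene, was lower, at -1.63 ± 0.18 (adjusted p = 5.47e-06), with means of 3.33 ± 0.263, 0.64 ± 0.206, 0.783 ± 0.304 and 1.9 ± 0.548 RPKM on days 3, 14, 21 and 35, and *Hk2*, an inducible hexokinase, at -0.98 ± 0.18 (adjusted p = 0.00058). Of 27 tested glycolysis and hypoxia genes 5 (18.5%) were lower and 2 (7.41%) higher, 3 and 2 of which kept their order.

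*Col1a1* and *Col5a2*, fibrillar collagen genes of bone, were called lower on the middle days, mainly against day 35. *Col1a1*, the main collagen chain of bone, measured 132, 111 and 95.1 RPKM on day 3, 90.3, 55.2 and 65.3 on day 14, 92.7, 78.9 and 74.9 on day 21, and 329.9, 191 and 262 on day 35. The difference was -1.46 ± 0.19 (adjusted p = 2.65e-05), and day 14 replicate 1 overlapped day 3 after centring. Days 14 and 21 were -0.68 and -0.24 from day 3 alone (limma, adjusted p = 0.0575 and 0.501), and -2.69 and -2.24 from day 35. *Col5a2*, a fibril-regulating chain, was lower, at -0.93 ± 0.10 (adjusted p = 2.69e-06), with means of 128 ± 9.54, 96.3 ± 21.7, 98.1 ± 3.01 and 176 ± 23.4 RPKM on days 3, 14, 21 and 35. Its day 21 was only -0.17 from day 3 (limma, adjusted p = 0.337). *Col12a1* was called lower, at -1.30 ± 0.10, but lost its order as listed and after rescaling to rows other than ribosomal RNA, since its day 35 mean of 2.45 RPKM was the lowest. Of 22 tested collagens 3 (13.6%) were higher and 4 (18.2%) lower, against 12.8% and 10.1% of all genes.

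The mature osteoblast genes did not have the pattern, because day 21 was above day 3. *Bglap*, osteocalcin, had means ± SD (n = 3) of 3.39 ± 0.932, 1.37 ± 0.239, 17.2 ± 8.02 and 146 ± 49.7 RPKM on days 3, 14, 21 and 35, and *Ibsp*, bone sialoprotein, of 0.483 ± 0.213, 0.397 ± 0.139, 3.62 ± 1.81 and 45.3 ± 17.6 RPKM on days 3, 14, 21 and 35. *Alpl*, alkaline phosphatase, had 19 ± 1.96, 8.49 ± 0.233, 36.3 ± 2.84 and 119 ± 59.1 RPKM on days 3, 14, 21 and 35, and *Sp7*, the factor osterix, 3.91 ± 0.279, 2.82 ± 0.405, 14.3 ± 2.63 and 31.3 ± 10.4 RPKM on days 3, 14, 21 and 35. Their contrasts were -2.37 ± 0.23, -2.11 ± 0.24, -1.64 ± 0.14 and -1.03 ± 0.16, with day 35 above every middle library. All 4 had their lowest mean on day 14, below day 3. Of 23 tested osteoblast genes 2 (8.7%) were higher, *Bmp2* and *Spp1*, and 2 (8.7%) lower, *Col1a1* and *Dlx5*, against 12.8% and 10.1% of all genes.

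*Postn*, periostin, *Dcn*, decorin, and *Col3a1* did not meet the order either. Their contrasts were -0.80 ± 0.08, 0.34 ± 0.11 and 0.36 ± 0.22 (adjusted p = 0.221).

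Ribosomal protein genes were called lower in 6 of 34 (17.6%) and higher in 0. *Rps2* measured 291, 383 and 463 RPKM on day 3, 48.8, 126 and 114 on day 14, 106, 117 and 109 on day 21, and 229, 215 and 113 on day 35, a difference of -1.67 ± 0.17 (adjusted p = 1.44e-06), and *Rpl30* was lower, at -1.0 ± 0.17 (adjusted p = 0.00028), with means of 370 ± 25.2, 183 ± 78.5, 220 ± 26.9 and 288 ± 121 RPKM on days 3, 14, 21 and 35. *Rpl14* was lower, at -0.97 ± 0.19, and *Rpl3* at -0.74 ± 0.15 with the order lost on scaling to equal medians. These genes have many processed pseudogenes, so reads may be shared with near-identical copies. With the run as a term 10 were lower.

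Cell cycle and histone genes were called lower after centring but did not have a minimum as listed. Of 35 tested cell cycle genes 9 (25.7%) and of 32 replication histones 5 (15.6%) were lower. None of them kept its order in all 4 other scalings, and none was called lower with RPKM as listed. *Mki67*, the proliferation marker, was not called, since day 35 was its lowest day after centring too. It had means of 30.4 ± 4.8, 9.16 ± 0.701, 4.61 ± 0.526 and 1.9 ± 0.843 RPKM on days 3, 14, 21 and 35. *Hist1h1c* had 381 ± 23.4, 112 ± 22.4, 99.7 ± 6.29 and 83.2 ± 21.5 RPKM on days 3, 14, 21 and 35, and *Ccne2*, cyclin E2, 2.01 ± 0.238, 0.438 ± 0.0547, 0.241 ± 0.113 and 0.187 ± 0.184 RPKM on days 3, 14, 21 and 35. When libraries were scaled to equal medians before the 0.5 was added, only 1 cell cycle gene but 6 histones were called lower.

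Genes of antigen presentation, which interferon-gamma is known to induce, had the same limit. *Cd74*, the invariant chain, measured 11.3, 14.4 and 13.6 RPKM on day 3, 0.166, 0.160 and 0.0980 on day 14, 0.132, 0.128 and 0.0610 on day 21, and 0.141, 0.0630 and 0 on day 35. Its difference was -2.45 ± 0.17, but all values from day 14 on were at most 0.166 RPKM, and the order was kept only after quantile normalization. *H2-Ab1*, an MHC class II chain, was lower, at -1.68 ± 0.16, but lost its order as listed and after rescaling to rows other than ribosomal RNA, and with the run as a term, where the difference was -1.62 (limma, adjusted p = 6.34e-05). They were the 2 lower of 33 tested interferon genes (6.06%, against 10.1% of all genes), and 0 were higher.

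Of 12 tested noncoding RNAs of the nucleus 3 (25%, against 10.1% of all genes) were lower, *Neat1*, *Malat1* and *Snhg8*, and 0 were higher. All 3 lost their order as listed, *Malat1* also after quantile normalization and after rescaling to rows other than ribosomal RNA. *Malat1* was lower, at -0.46 ± 0.16, and *Snhg8*, at -0.43 ± 0.08, with day 35 highest after centring in both. *Neat1* had 127 ± 33.4, 20.8 ± 7.22, 15.2 ± 2.34 and 18.9 ± 7.65 RPKM on days 3, 14, 21 and 35, and *Tagln*, a smooth muscle gene, 97.8 ± 16.2, 11 ± 1.35, 12.6 ± 4.07 and 11.3 ± 4.5 RPKM on days 3, 14, 21 and 35, both with day 3 far above days 14, 21 and 35 and the order lost as listed. *Scx*, a tendon transcription factor, kept its order, at -0.84 ± 0.25 (adjusted p = 0.0144), and with the run as a term it was not called at a difference of -0.81 (limma, adjusted p = 0.0607), while the order also held for *Prg4*, lubricin, at -0.95 ± 0.14 (adjusted p = 6.11e-05). The summed RPKM of the 24 tendon and muscle genes in the files was 281 to 323 on day 3, 105 to 214 on days 14 and 21 and 75.3 to 154 on day 35, and its part in these results was not tested.

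Between days 21 and 14, 205 of all genes tested (2.06%) were called in either direction. This count was 60 and 113 without day 21 replicates 2 and 3, 96, 104 and 87 without day 14 replicates 1, 2 and 3, 63 with RPKM as listed, 341 with replicates 2 and 3 alone and 581 with the replicate block. In the fit of all libraries 21 of the 1275 higher and 9 of the 1004 lower genes were among them. *Inhbb* had the largest fall from day 14 to day 21 among the named genes, -1.33 ± 0.21 (adjusted p = 0.00272), followed by *Pcdh20* at -1.10 ± 0.22 (adjusted p = 0.0165) and *Kcnj15* at -1.04 ± 0.24 (adjusted p = 0.036). *Ctgf* and *Tnc* were higher on day 21 by 1.37 ± 0.18 (adjusted p = 0.000511) and 1.32 ± 0.13 (adjusted p = 3.16e-05).

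Within run 230, where replicate 1 of each day was sequenced, the middle days differed from the ends in the same direction for 1273 of the 1275 higher genes and for 1002 of the 1004 lower ones. Both middle libraries of replicate 1 lay beyond both of its end libraries in 997 (78.2%) and 637 (63.4%). Replicate 1 is part of the fit that called these genes, so this is a description and not a separate test. All 158 named genes that were called had the same sign in replicate 1 and in replicates 2 and 3. For the 15 largest rises the difference ran from 1.59 to 4.03 in replicate 1 and from 2.04 to 4.21 in replicates 2 and 3, and for the 15 largest falls from -3.38 to -1.45 and from -3.5 to -1.35.

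**Figure D5:**
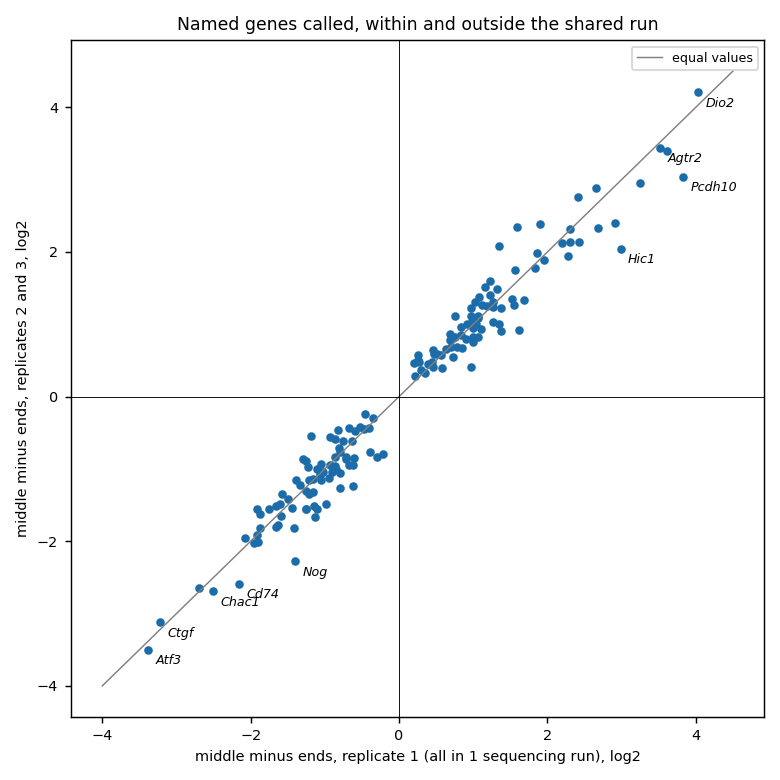
Difference between the middle days and the ends (centred log2) in replicate 1, sequenced in 1 run (x axis), and in replicates 2 and 3, whose middle and end libraries came from different runs (y axis), with 1 point for each of the 158 named genes that were called and the line of equal values. All points lie where both values have the same sign, with *Nog* further from 0 in replicates 2 and 3 and *Hic1* and *Pcdh10* in replicate 1.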

How the data were processed

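RNA of untreated IDG-SW3 cells was sequenced on 6 days with 3 libraries a day. Per the submitters' processing notes the aligner was TopHat, with no version stated, and the build mm9, while the counting step and annotation are not given in the sources used here. The deposited files of untreated cells hold RPKM as the authors computed them, a unit read from the file names and the values, and the files of the hormone experiment were not used here. Rows of ribosomal RNA, 71.6% to 88.4% of each summed RPKM, are in the files. Whether they entered the library total is not given in the sources used here, and 1 of these rows was taken for ribosomal RNA from its values only. Absolute depth is unknown.

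For each of 25520 symbols the row with the highest mean was kept, and a gene was tested where 3 or more of the 18 libraries reached 1 RPKM. Each library's log2(RPKM + 0.5) was centred on its median over these 9933 genes and fitted with limma (3.58.1, R 4.3.3) on all 18 libraries with trended moderation and 12 residual degrees of freedom. All p-values are two-sided and adjusted by Benjamini-Hochberg over the 9933 genes, and the fit was tested on simulated data. The contrast was the mean of days 14 and 21 minus the mean of days 3 and 35, with SE from the moderated fit. Named genes are the 15 largest differences in each direction without overlap and with a mean of at least 5 RPKM on the higher side, up to 4 called members per list and direction with the smallest adjusted p, and 21 genes named whatever their result. Unnamed gene models and small RNAs were left out, and some named genes are not reported here. The pattern, the 35 lists and the genes named whatever their result were chosen with earlier results of these data known. Alternatives covered scaling, pseudocount, filter, run, replicate block, other days and each library left out. Promoter windows are those of RefSeq, GRCm38.p6.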

Additional observations from a re-analysis of the deposited data

Results flagged for a closer look

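Between the middle days themselves, 11 named genes that were called in the main comparison also differed by a test of day 21 minus day 14 (limma, log2 units, adjusted over all 9933 genes tested). Higher on day 21 were *Ctgf* by 1.37 (adjusted p = 0.000511), *Tnc* by 1.32 (3.16e-05), *Igfbp2* by 0.87 (0.0364), *Arl4d* by 0.85 (0.0258), *Col14a1* by 0.82 (0.0162), *Adamtsl3* by 0.67 (0.0395), *Clu* by 0.66 (0.0163) and *Col8a1* by 0.52 (0.027). Lower on day 21 were *Inhbb*, at -1.33 (0.00272), *Pcdh20*, at -1.1 (0.0165) and *Kcnj15*, at -1.04 (0.036). The groups of 3 libraries are too small for a search for single outlying libraries.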

How the results depend on the processing

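Counts are given as higher and lower. RPKM as listed gave 2585 and 119 genes, 595 and 18 in all 4 day pairs and 63 between days 21 and 14, and rescaling to rows other than ribosomal RNA gave 1965 and 348, and 558 and 56 in all 4 pairs. Without a filter 1949 genes were lower, 211 in all 4 pairs, and with at least 5 RPKM in 3 libraries 695 were higher and 388 lower. A difference of at least 1 log2 unit left 234 and 161. With days 7 to 28 as the middle 854 and 647 genes passed. Chosen after seeing the data, scaling before the pseudocount left 657 lower genes, and 148 lower genes kept their order in all scalings. Replicate 1 alone, with 2 residual degrees of freedom, gave 0 and 0 genes with limma. At an unadjusted p below 0.05 it had 393 of 9933 genes, a share below 0.05, against 4459 in the main fit. Replicates 2 and 3 alone gave 341 genes between days 21 and 14. Nothing in the labels says that a replicate number pairs libraries. Correlations of deviations between same-numbered libraries ran from 0.0578 to 0.584, at 0.345 or above in all 15 pairs of replicate 1. The median over 90 pairs of different numbers was -0.301, and 11 of 18 libraries were closest to one with their own number. Deviations within a day sum to 0, so positive values for the same number force negative ones for different numbers. All replicate 1 libraries came from run 230, so number and run cannot be told apart there. With the replicate block 1563 and 1218 genes were called, against 1275 and 1004 without it, 407 and 165 against 248 and 101 in all 4 pairs, and 581 against 205 between days 21 and 14. Leaving out 1 library gave 1165 to 1298 higher and 867 to 1090 lower genes, 188 to 248 and 74 to 112 in all 4 pairs, and 60 to 215 between days 21 and 14. That last count dropped to 96, 104 and 87 on leaving out the day 14 libraries 1, 2 and 3, and to 60 and 113 on leaving out the day 21 libraries 2 and 3. Days 7 to 28 as the middle was run for the counts only. Under the 26 other alternatives apart from replicate 1 alone, 108 of the 158 named genes called could be tested in all, and 76 of these were called in all. The others did not pass the filter of 5 RPKM. None of the 158 reversed where tested.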
